A study of Mus musculus with 20 samples.

Results

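The organic ion and drug transporters of the mouse kidney were described here as the genes whose array name begins with Slc22a, Slco or Slc47a, each followed by a number. The rule found 35 genes, read by 49 probes, among the 27827 gene names and 41174 probes of the array, and it used names only, not measured values. Kidneys came from C57BL/6 male mice aged 8 to 12 weeks, with 4 arrays in each of 5 groups, 20 arrays in all, and each array was hybridized with the RNA of a single sample labelled with the dye Cy3. Control mice had neither surgery nor treatment. IRI mice (renal ischemia and reperfusion injury) had both renal pedicles clamped for 45 min, and the kidney was taken 6 h after blood flow returned. IRI+Hemin mice received 25 mg/kg of hemin, the iron porphyrin that induces heme oxygenase-1, into the peritoneum 24 h before the same surgery, and Hemin mice received hemin without ischemia. IPC+IRI mice (ischemic pre-conditioning) had a 15 min clamp 7 days before the 45 min ischemia. The study asked how pre-conditioning and hemin alter the renal transcription profile after ischemia.

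The SLC22 family holds the organic cation transporters, the organic anion transporters and the carnitine transporters, the SLCO family holds the organic anion transporting polypeptides (OATPs), and Slc47a1 encodes the MATE1 exporter. In the proximal tubule, carriers of the basolateral membrane take drugs, toxins and metabolites from blood, and exporters, exchangers and ABC pumps of the apical membrane release them to urine. Several organic anion transporter genes are known to depend on the transcription factor Hnf4a in this cell.

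Levels are given as log2 of the processed signal of a gene over the 75th percentile of all probes of its array, so that 0 is the level of that percentile, and a difference of 1 is a doubling. A level compares arrays for 1 gene and does not compare genes with each other. Of the 35 genes, 23 were well above background, as the scanner software flags it, on all 20 arrays, and 28 passed the filter on dim genes in at least 1 comparison. Slc22a3, Slc22a20, Slco1b2, Slco5a1, Slco6b1, Slco6c1 and Slco6d1 did not, with group means between -7.35 and -5.17. Genes were compared with limma over all genes of the array, and a gene was called higher or lower at a Benjamini-Hochberg adjusted p below 0.05.

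The 75th percentile lay between 147 and 358 intensity units, and correlations over genes were 0.972 to 0.993 between arrays of a group and 0.928 to 0.983 between groups. The 4 arrays of a group made up 1 slide, and effects of slide and of group cannot be told apart. The scans fell on 3 days, the first for the Control and IRI arrays, the next for the IRI+Hemin arrays and the last for the arrays of IPC+IRI and of Hemin. Of the comparisons below, only IRI vs Control and IPC+IRI vs Hemin therefore lie within a scan day. All 8 proximal tubule markers were well above background on at least 3 arrays in every group. Their summed level was 8.65 to 8.77 in Control, 8.28 to 8.63 in IRI, 8.08 to 8.54 in IRI+Hemin, 8.27 to 8.42 in IPC+IRI and 8.63 to 8.66 in Hemin. In these bulk samples, fewer cells of a type and less RNA per cell cannot be told apart.

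Promoters are shown for 3 genes described below, as the 250 bases before the annotated start in RefSeq, build GRCm38.p6. They are written 5′ to 3′ on the strand of the gene. Slco4c1 and Slc22a12 are examples that hold a mark, and Slc22a8 was called lower by at least 2-fold in 4 comparisons. Slc22a4, Slc22a16, Slc22a17 and Slco1a6, among others, also held letters searched for and are not shown. Capitals mark TGACNNNGC, the core of the antioxidant response element, on either strand in Slco4c1, and CAAAGT, the core letters of an HNF4 site, read on the other strand in Slc22a12. Slc22a8 held none of the letters searched and has no capitals. The table held a promoter for 28 of the 35 genes.
Slco4c1, chr1:96872172-96872421, minus strand: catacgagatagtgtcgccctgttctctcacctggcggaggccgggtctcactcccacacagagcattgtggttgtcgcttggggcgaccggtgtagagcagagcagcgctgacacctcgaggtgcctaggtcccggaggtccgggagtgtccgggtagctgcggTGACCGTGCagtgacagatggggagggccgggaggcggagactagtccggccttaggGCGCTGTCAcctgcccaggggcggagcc
Slc22a12, chr19:6543071-6543320, minus strand: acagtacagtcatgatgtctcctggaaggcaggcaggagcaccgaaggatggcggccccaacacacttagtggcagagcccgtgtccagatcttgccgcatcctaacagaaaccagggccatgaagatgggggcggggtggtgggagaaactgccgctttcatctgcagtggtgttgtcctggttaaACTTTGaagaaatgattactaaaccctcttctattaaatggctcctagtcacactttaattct
Slc22a8, chr19:8592932-8593181, plus strand: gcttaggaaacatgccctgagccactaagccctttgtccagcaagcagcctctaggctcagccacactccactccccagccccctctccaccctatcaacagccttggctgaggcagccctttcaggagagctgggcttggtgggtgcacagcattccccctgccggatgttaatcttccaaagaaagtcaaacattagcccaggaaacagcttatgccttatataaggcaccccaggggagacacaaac

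TGACNNNGC stood 85 and 28 bases before the start of Slco4c1, counted to its first base. Searched on both strands, it was found in 10.2% of 32851 mouse promoters of this length and in 5 of the 41 promoters of 36 transporter genes by their current symbols. CAAAGT stood 63 bases before the start of Slc22a12, and was in 8 of 41 against 12.6% of all promoters. ACGTG, the core of the hypoxia response element, was in 3 of 41 against 16.6%, and TGACTCA, the AP-1 site, in 0 of 41 against 4.46%. The only overlap between different motifs in a transporter promoter was in Slc22a20, where the HNF4 letters lie inside TGACTTTGC, and in Slc22a16 and Slc22a4 ACGTG overlaps its own match on the other strand. A match of letters is a description of the sequence and not a measured site.

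Ischemia alone was followed by changes in 8 of the tested transporters, of which 6 were OATPs. In IRI vs Control, 27 genes were tested, 3 were higher (11.1%, against 17% of all genes tested) and 5 were lower (18.5%, against 33.7%), so both shares lay below those of the array. Changes of at least 2-fold were called for 1 higher gene (5.97% of all genes) and 2 lower ones (14.3%). The higher genes were Slco4a1, Slco2a1 and Slc22a4, and the lower ones Slco1c1, Slco4c1, Slco2b1, Slco1a5 and Slc22a5. The median log2 fold change of the 27 genes was -0.09, and that of all genes -0.17. The split depended on the processing, with 2 higher and 1 lower after normexp background correction. This correction added an offset of 50 intensity units to every spot before scaling, which compresses differences of dim genes. The split was 3 and 9 with the 75th percentile taken over probes above background on all arrays. It was 2 and 7 in the deposited log2 table, which was scaled here to the 75th percentile of its values on each array. That table is 18.1% blank, so fewer genes could be tested in it. Of 8 proximal tubule markers, 3 were lower in the same comparison (Lrp2, Cubn and Slc5a12), and their part in the result was not tested.

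**Figure D1:**
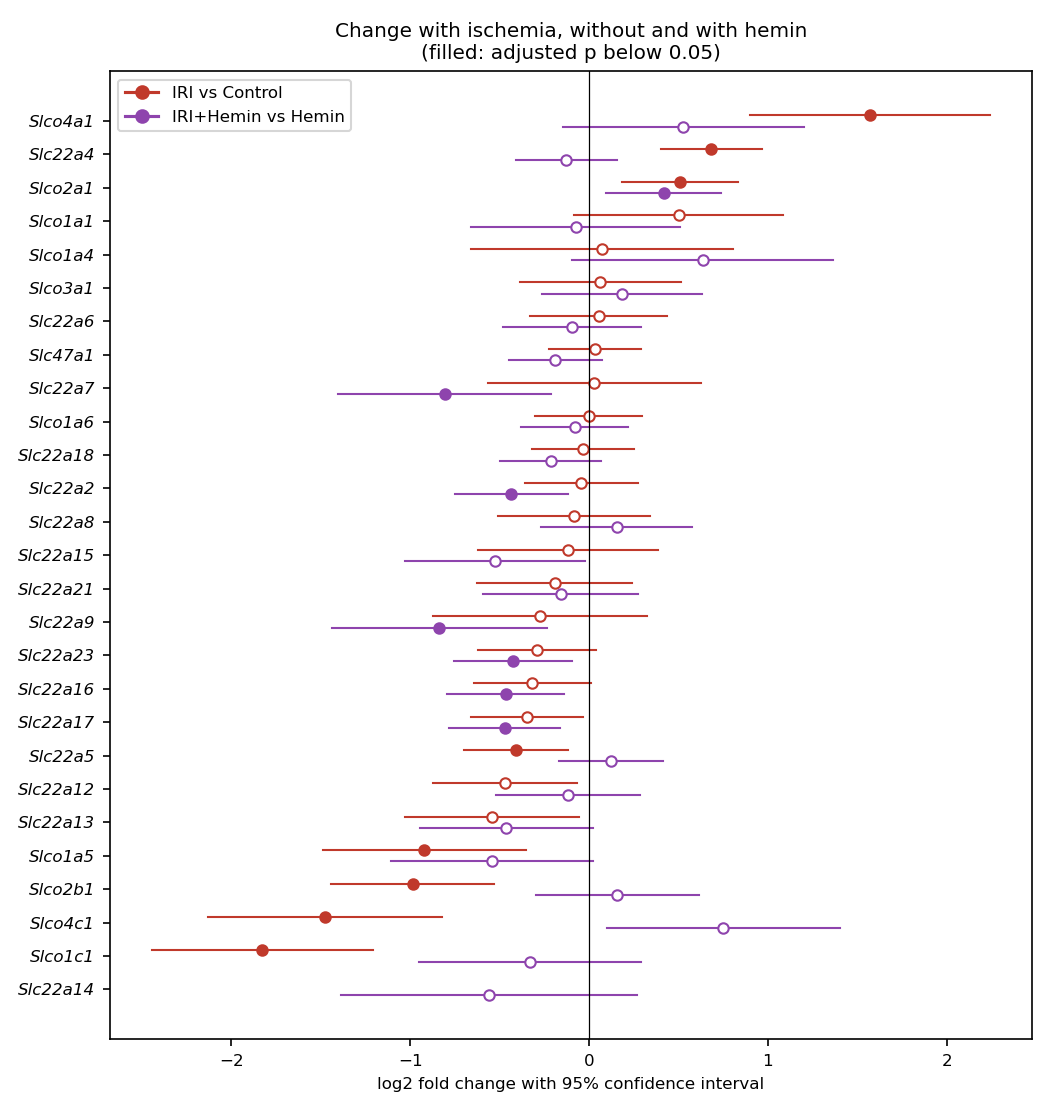
Log2 fold change with its 95% confidence interval for 27 tested transporter genes in IRI vs Control and in IRI+Hemin vs Hemin, with filled points for calls at adjusted p below 0.05. Slco4a1 lies farthest to the right and Slco1c1 farthest to the left in IRI vs Control, and most intervals of both comparisons cross 0.

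Slco4c1 encodes the OATP of the basolateral membrane of the proximal tubule that takes up digoxin and thyroid hormone. Its level was -1.42, -1.53, -2.10 and -1.62 on the 4 Control arrays and -3.48, -3.42, -3.35 and -2.31 on the 4 IRI arrays. On the IRI+Hemin arrays it was -1.62, -0.70, -0.83 and -0.50, on the IPC+IRI arrays -0.89, -1.40, -0.96 and -1.29 and on the Hemin arrays -0.92, -1.65, -1.62 and -2.46. Every Control array lay above every IRI array, the 4th IRI array stood above the other 3, and all arrays of IRI+Hemin and IPC+IRI lay above all arrays of IRI. The gene fell in IRI vs Control (log2 fold change -1.48, SE 0.31, adjusted p = 0.00075), which is 2.79-fold. It was higher in IPC+IRI vs IRI (log2 fold change 2.01, SE 0.31, adjusted p = 9.33e-05) and in IRI+Hemin vs IRI (log2 fold change 2.23, SE 0.31, adjusted p = 3.82e-05). In IRI+Hemin vs Hemin the difference was 0.75 (95% CI 0.10 to 1.40, adjusted p = 0.0579), and it was called with quantile normalization (0.79, adjusted p = 0.046) and without IRI+Hemin replicate 1 (0.99, adjusted p = 0.0181) or Hemin replicate 1 (0.998, adjusted p = 0.0167). The interaction, which asks whether the change with ischemia differs with hemin given before, was 2.23 (SE 0.44, adjusted p = 0.00463). With normexp background correction the change in IRI vs Control shrank to -0.27 (adjusted p = 0.554), IPC+IRI vs IRI to 0.52 (adjusted p = 0.11) and the interaction to 0.90 (adjusted p = 0.32), while IRI+Hemin vs IRI, at 0.77, remained called (adjusted p = 0.0204).

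Slco4a1 encodes a broadly expressed OATP that carries thyroid hormone, prostaglandins and taurocholate. Levels were 1.25, 0.24, 0.47 and 0.52 in Control, 1.94, 2.80, 1.94 and 2.08 in IRI, and 1.86, 2.73, 2.28 and 2.11 in IPC+IRI. They were 1.80, 1.95, 2.01 and 2.46 in IRI+Hemin and 1.49, 0.98, 2.63 and 1.02 in Hemin. All 12 ischemic arrays lay above all 4 Control arrays, while the Hemin arrays overlapped the ischemic ones through their 3rd array, the highest of the group. The gene rose in IRI vs Control (log2 fold change 1.57, SE 0.32, adjusted p = 0.000579), a 2.97-fold change, and in IPC+IRI vs Control (log2 fold change 1.63, SE 0.32, adjusted p = 0.000357), comparisons that share the Control arrays. In IRI+Hemin vs Hemin, which shares no array with IRI vs Control, the difference was 0.53 (95% CI -0.14 to 1.20, adjusted p = 0.19), and without Hemin replicate 3 it was 0.89 and called (adjusted p = 0.0142). Hemin vs Control passed the test at 0.91 (adjusted p = 0.0338), but that call was lost without any one of 5 arrays, Control replicates 2, 3 and 4 and Hemin replicates 1 and 3 (adjusted p 0.0592 to 0.129), and in 3 other settings (adjusted p 0.0528 to 0.08).

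Slco2b1 encodes an OATP that takes up steroid sulfates and many oral drugs. It read 2.27, 1.72, 1.99 and 1.77 in Control and 1.36, 0.80, 1.00 and 0.63 in IRI, with no overlap. With hemin given, the levels were 1.42, 1.92, 1.70 and 1.78 after ischemia and 1.42, 1.17, 1.95 and 1.64 without it, and these groups overlapped. IPC+IRI arrays read 0.60, 1.22, 1.63 and 1.41, from the range of IRI to near that of Control. The gene fell in IRI vs Control (log2 fold change -0.99, SE 0.22, adjusted p = 0.0011) and was higher in IRI+Hemin vs IRI (log2 fold change 0.76, SE 0.22, adjusted p = 0.0093). The interaction was 1.14 (adjusted p = 0.0287), and it lost the call under normexp (1.19, adjusted p = 0.0507), without normalization between arrays (0.94, adjusted p = 0.342) and in 6 fits that each left out 1 array, namely Control replicate 1, IRI replicate 2 or 4, IRI+Hemin replicate 2 and Hemin replicate 1 or 2 (adjusted p 0.0513 to 0.0593). In IPC+IRI vs Control the gene was lower (-0.72, adjusted p = 0.00935), a call lost under normexp (-0.52, adjusted p = 0.0538) and without normalization (-0.28, adjusted p = 0.461).

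Slco2a1 encodes the prostaglandin transporter, which clears prostaglandins from the extracellular space. Its levels were 1.07, 0.90, 0.93 and 0.77 in Control and 1.51, 1.37, 1.61 and 1.22 in IRI, and they were 0.82, 0.97, 0.90 and 1.13 in Hemin and 1.25, 1.57, 1.34 and 1.34 in IRI+Hemin. In both pairs every ischemic array lay above every array without ischemia. IPC+IRI arrays read 0.30, 0.85, 0.95 and 1.22, spread from below Control to the lower edge of IRI. The gene rose in IRI vs Control (log2 fold change 0.51, SE 0.15, adjusted p = 0.0105) and in IRI+Hemin vs Hemin (log2 fold change 0.42, SE 0.15, adjusted p = 0.0357), and it was the only transporter called in both of these comparisons. It was lower in IPC+IRI vs IRI (log2 fold change -0.60, SE 0.15, adjusted p = 0.00476). The rise in IRI vs Control rested on 1 of its 2 probes, which changed by 0.64 (adjusted p = 0.00441) while the other changed by -0.21 (adjusted p = 0.256). In IRI+Hemin vs Hemin these probes changed by 0.42 (adjusted p = 0.05) and 0.37 (adjusted p = 0.0461). The call in IRI vs Control was lost when log2 values were averaged over probes (0.21, adjusted p = 0.197), with normexp background correction (0.38, adjusted p = 0.07), without normalization between arrays (0.63, adjusted p = 0.0662) and in the deposited log2 table (0.32, adjusted p = 0.125). The one in IPC+IRI vs IRI was lost without normalization (-0.28, adjusted p = 0.406). The one in IRI+Hemin vs Hemin was lost with normexp, without normalization, in the deposited table and with no filter on dim genes (adjusted p 0.0555 to 0.345), and when any one of 5 arrays was left out (IRI+Hemin replicate 2 or 3, Hemin replicate 1, 2 or 3, adjusted p 0.056 to 0.104).

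Slco3a1 encodes another prostaglandin and thyroxine carrier. Its levels were 3.78, 4.32, 3.59 and 3.51 in Control and 3.98, 4.36, 3.99 and 3.12 in IRI, 4.71, 4.68, 4.72 and 4.82 in IRI+Hemin, 4.33, 4.62, 4.68 and 4.44 in IPC+IRI and 4.81, 4.65, 4.47 and 4.26 in Hemin. Control and IRI overlapped throughout, and all IRI+Hemin arrays lay above all of theirs. In IRI vs Control the difference was 0.06 (95% CI -0.39 to 0.51), and in IRI+Hemin vs IRI the gene was higher (log2 fold change 0.87, SE 0.21, adjusted p = 0.00338).

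**Figure D2:**
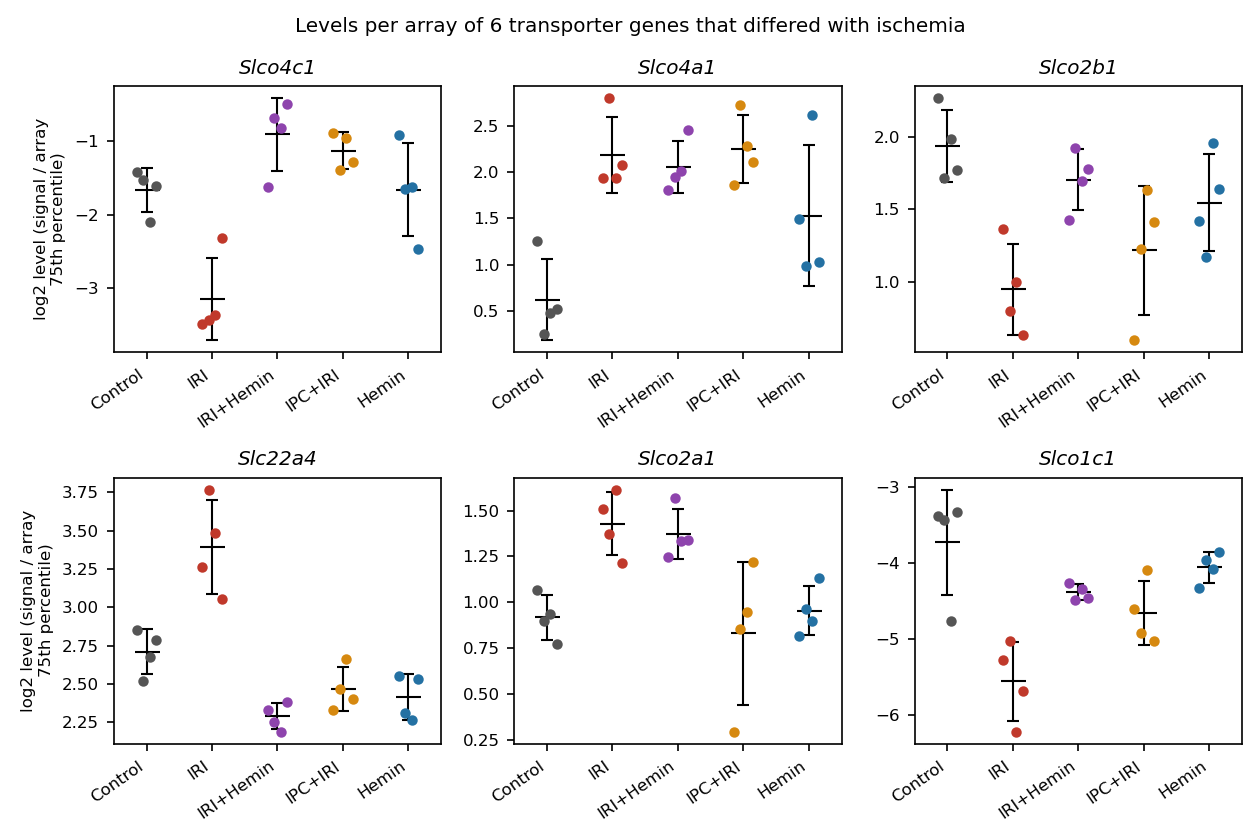
Log2 level of 6 transporter genes on each array (points), with the mean and SD of the 4 arrays of each group (bars). Slco4c1 and Slco2b1 sit lower in IRI than in Control, Slco4a1, Slc22a4 and Slco2a1 sit higher, and the Slco1c1 arrays of IRI are not well above background.

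The OATP1 family carries bile acids, steroid conjugates and thyroid hormone. Slco1a1 read 2.45, 2.63, 2.64 and 2.25 in Control and 2.85, 3.27, 3.03 and 2.83 in IRI. It read 1.32, 1.06, 1.07 and 1.73 in IRI+Hemin, 0.94, 2.26, 1.69 and 1.44 in IPC+IRI and 1.35, 1.35, 2.15 and 0.63 in Hemin. All arrays of IRI lay above all of the last 3 groups, while IPC+IRI replicate 2 just overlapped Control. The gene was lower in IRI+Hemin vs IRI (log2 fold change -1.70, SE 0.28, adjusted p = 0.000141), in IPC+IRI vs IRI (log2 fold change -1.41, SE 0.28, adjusted p = 0.000648) and in Hemin vs Control (log2 fold change -1.12, SE 0.28, adjusted p = 0.00497), the last of which was lost without normalization between arrays (-0.56, adjusted p = 0.168). In IRI vs Control it changed by 0.50 (95% CI -0.08 to 1.08, adjusted p = 0.142), with 0.25 for 1 probe (adjusted p = 0.44) and 1.22 for the other (adjusted p = 0.0253). Slco1a6 read 3.65, 4.01, 3.69 and 3.46 in Control and 3.61, 3.79, 3.74 and 3.67 in IRI, a difference of -0.00 (95% CI -0.30 to 0.30). In the other groups it read 3.25, 3.46, 3.34 and 3.18 with hemin and ischemia, 3.47, 3.62, 3.23 and 3.33 with pre-conditioning and ischemia and 3.34, 3.45, 3.74 and 3.02 with hemin alone, of which the first lay wholly below IRI and the others overlapped it.

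Slco1c1, the thyroxine carrier known best from the blood-brain barrier, and Slco1a5 were dim. Slco1c1 read -3.37, -3.44, -4.76 and -3.32 in Control, where 3 of 4 arrays were well above background. In IRI no array was, with measured values of -5.28, -5.02, -6.21 and -5.68. Taking for each IRI array the higher of the lowest detected signal and the measured signal, the gene was at least 2.77-fold lower in IRI vs Control (adjusted p = 6.86e-05). By the same bound it was at least 1.75-fold higher in IRI+Hemin vs IRI (adjusted p = 0.00396). Slco1a5 read -4.63, -4.08, -4.69 and -4.37 in Control and -5.40, -5.68, -5.17 and -5.20 in IRI, where 1 of 4 arrays was well above background, a difference of -0.92, adjusted p = 0.0086. With normexp background correction the differences read 0.00 (adjusted p = 0.999) for Slco1c1 and 0.13 (adjusted p = 0.818) for Slco1a5 in IRI vs Control. Slco1c1 read -0.45 in IRI+Hemin vs IRI. The offset of 50 in that setting compresses differences of genes this dim, so it cannot tell whether they hold. The Slco1a5 call in IRI vs Control was also lost with quantile normalization (-0.50, adjusted p = 0.146), without normalization (-0.80, adjusted p = 0.0704) and with log2 values averaged over probes (-0.61, adjusted p = 0.081). Slco1a4 was higher in IRI+Hemin vs IRI (1.00, adjusted p = 0.0264) through values of -3.17, -3.86, -1.92 and -3.01 against -3.62, -3.95, -4.40 and -4.00, groups that overlap, and the difference turned to -0.12 with normexp. That call was also lost without IRI replicate 3 or IRI+Hemin replicate 3 (adjusted p 0.0782 to 0.104).

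Slc22a4, the ergothioneine carrier, is grouped with the carnitine transporters. It read 2.85, 2.52, 2.67 and 2.79 in Control and 3.26, 3.77, 3.48 and 3.05 in IRI. It read 2.33, 2.25, 2.19 and 2.38 in IRI+Hemin, 2.33, 2.47, 2.66 and 2.40 in IPC+IRI and 2.55, 2.31, 2.27 and 2.53 in Hemin. Every IRI array lay above every array of the other 4 groups. The gene rose in IRI vs Control (log2 fold change 0.68, SE 0.13, adjusted p = 0.000425) and was lower in IRI+Hemin vs IRI (log2 fold change -1.10, SE 0.13, adjusted p = 1.19e-05) and in IPC+IRI vs IRI (log2 fold change -0.93, SE 0.13, adjusted p = 5.52e-05), which all share the IRI arrays. In IRI+Hemin vs Hemin the difference was -0.13 (95% CI -0.41 to 0.16, adjusted p = 0.463). The interaction of -0.81 (adjusted p = 0.014) was lost with normexp (-0.78, adjusted p = 0.106) and without normalization between arrays (-1.01, adjusted p = 0.121).

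Slc22a5 encodes the carnitine carrier that is defective in primary carnitine deficiency. Its levels were 3.11, 2.52, 3.40 and 2.90 in Control and 2.40, 2.68, 2.66 and 2.54 in IRI. In IRI+Hemin it read 2.31, 2.15, 2.31 and 2.26, in IPC+IRI 1.93, 1.75, 1.72 and 1.89 and in Hemin 2.04, 2.16, 2.22 and 2.11. Control and IRI overlapped, and all 12 arrays of the other groups lay below both. The gene was lower in IPC+IRI vs Control (log2 fold change -1.16, SE 0.14, adjusted p = 3.37e-06), IPC+IRI vs IRI (log2 fold change -0.75, SE 0.14, adjusted p = 0.000402) and Hemin vs Control (log2 fold change -0.85, SE 0.14, adjusted p = 0.000313), although without normalization between arrays neither IPC+IRI vs IRI (-0.43, adjusted p = 0.216) nor Hemin vs Control (-0.28, adjusted p = 0.379) was called. In IRI vs Control the change of -0.41 (adjusted p = 0.0198) was lost without Control replicate 1 or 3 or IRI replicate 1 (adjusted p 0.0554 to 0.0856) and in 4 other settings.

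Slc22a21, the third carnitine carrier of the mouse, was likewise highest in Control, at 1.73, 0.86, 2.24 and 1.69, and IRI, at 1.31, 1.38, 1.46 and 1.60. It read 0.80, 0.87, 0.89 and 0.24 in IRI+Hemin, 0.59, 0.66, 0.63 and 0.72 in IPC+IRI and 0.78, 0.87, 0.98 and 0.82 in Hemin, and 1 Control array lay among these. The gene was lower in IPC+IRI vs Control (log2 fold change -0.98, SE 0.21, adjusted p = 0.000628), a call lost without normalization between arrays (-0.54, adjusted p = 0.215). Its probe and the second Slc22a5 probe, 60 bases each, share a run of 33 bases, the only run of 16 or more between probes of different transporter genes, and whether they share signal was not tested. They lie on mm9 chromosome 11, at 53764508 to 53764567 and 53679058 to 53679117. The first 30 bases of the run are shown as the stretch the probes have in common, all in capitals because all are shared.
Slc22a21 and Slc22a5 probes: TGAGTCTCTTGAACAAGCAGGACTTGGAAG

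Slc22a15 was dim, at -3.50, -4.56, -4.87 and -4.51 in Control, -4.52, -4.57, -4.46 and -4.36 in IRI and -3.09, -3.94, -3.21 and -3.51 in Hemin. On the arrays of ischemia after pre-treatment it read -3.94, -3.90, -4.14 and -3.87 with hemin and -3.64, -3.03, -2.90 and -3.39 with pre-conditioning, all of them above all IRI arrays. It was higher in Hemin vs Control (0.92, adjusted p = 0.00668), in IPC+IRI vs Control (1.12, adjusted p = 0.000733) and in IPC+IRI vs IRI (1.24, adjusted p = 0.000568). After normexp these changes were -0.11, 0.07 and -0.15, and none was called. Slc22a16, a carnitine carrier of testis, read -2.99 to -2.78 in Control and -3.33 to -3.11 in IRI.

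The organic anion transporters that carry most of the secretion of drugs and uremic toxins were not called in IRI vs Control. Slc22a6 (OAT1) read 5.88, 6.11, 5.92 and 5.76 in Control and 5.99, 6.21, 6.24 and 5.44 in IRI, overlapping, with a difference of 0.05 (95% CI -0.33 to 0.44). Slc22a8 (OAT3), its partner on the basolateral membrane, read 2.85, 2.41, 3.51 and 3.28 in Control and 2.76, 2.94, 3.09 and 2.92 in IRI, with a difference of -0.08 (95% CI -0.51 to 0.34). These genes parted in the other groups. Slc22a8 read 1.55, 1.76, 1.50 and 1.51 in IRI+Hemin, 1.70, 1.29, 1.11 and 1.11 in IPC+IRI and 1.17, 1.85, 1.33 and 1.36 in Hemin, and all 12 of these arrays lay below all 8 of Control and IRI. Slc22a8 was lower in IPC+IRI vs Control (log2 fold change -1.71, SE 0.20, adjusted p = 2.99e-06), in Hemin vs Control (log2 fold change -1.59, SE 0.20, adjusted p = 6.88e-05), in IRI+Hemin vs IRI (log2 fold change -1.35, SE 0.20, adjusted p = 6.8e-05) and in IPC+IRI vs IRI (log2 fold change -1.63, SE 0.20, adjusted p = 1.55e-05), and these calls held in every setting tried. Slc22a6 read 5.75, 5.61, 5.32 and 6.19 in IRI+Hemin, 5.59, 5.68, 5.56 and 5.14 in IPC+IRI and 5.84, 5.83, 5.85 and 5.73 in Hemin. Only the IPC+IRI arrays lay wholly below Control, and every group overlapped IRI. The call of Slc22a6 in IPC+IRI vs IRI (-0.48, adjusted p = 0.0425) was lost without any one of 6 arrays (IRI replicates 1 to 3 and IPC+IRI replicates 1, 3 and 4, adjusted p 0.0531 to 0.136) and in 5 other settings (adjusted p 0.0547 to 0.514).

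The 3 Slc22a8 probes lie on mm9 chromosome 19 at 8684762 to 8684821, 8683645 to 8683704 and 8685607 to 8685666. Their group means, in the order of Control first, then IRI, IRI+Hemin, IPC+IRI and last Hemin, were 4.23, 4.17, 2.86, 2.54 and 2.58 for the first, and 2.23, 2.12, 0.57, 0.48 and 0.78 for the second. The third, dimmer probe read -0.61, -1.29, -2.32, -2.44 and -1.50. All 3 were lower in IPC+IRI vs Control (adjusted p 3.04e-06, 1.3e-05 and 0.000245), in IPC+IRI vs IRI (adjusted p 1.3e-05, 5.35e-05 and 0.0114) and in IRI+Hemin vs IRI (adjusted p 6.6e-05, 7.63e-05 and 0.0213). In Hemin vs Control the first and the second were lower (adjusted p 5.4e-05 and 0.000332), and the third missed the threshold (-0.89, adjusted p = 0.0526).

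**Figure D3:**
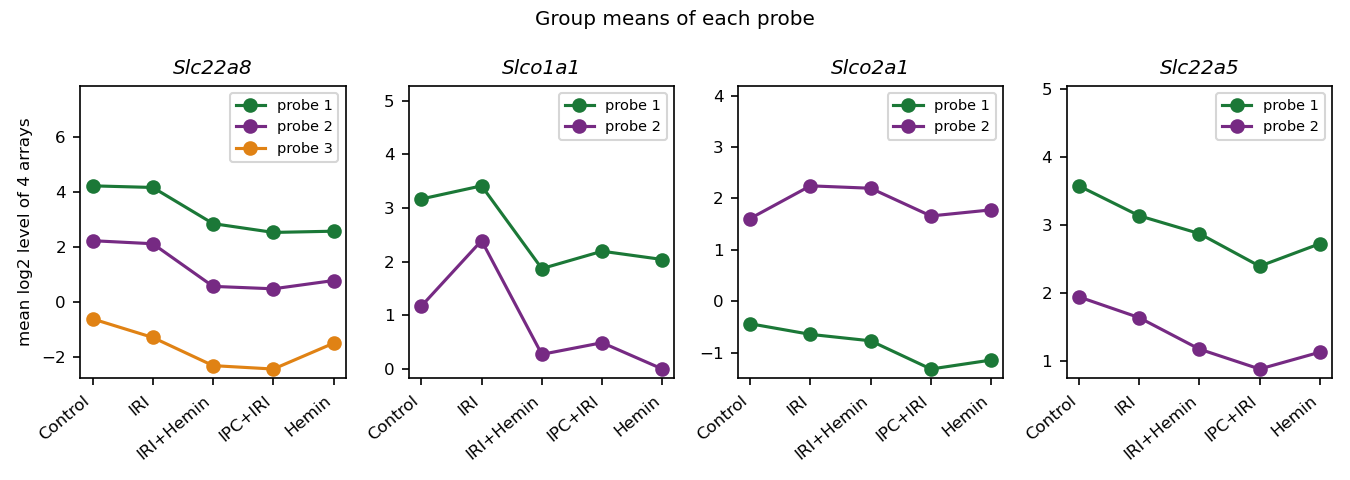
Group mean log2 level of each probe of Slc22a8 (3 probes) and of Slco1a1, Slco2a1 and Slc22a5 (2 probes each), 4 arrays per group. All Slc22a8 probes lie below their IRI mean in the groups drawn after IRI. The third also falls from Control (-0.61) to IRI (-1.29) and reads -1.50 in Hemin. The 2 Slco2a1 probes move apart between Control and IRI.

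Slc22a7 (OAT2) read 5.95, 4.99, 5.52 and 5.48 in Control and 5.70, 5.72, 5.68 and 4.97 in IRI, 4.96, 4.17, 4.63 and 5.87 in IRI+Hemin, 4.95, 4.68, 5.11 and 4.77 in IPC+IRI and 5.95, 5.77, 5.78 and 5.36 in Hemin. It was lower in IRI+Hemin vs Hemin (-0.81, adjusted p = 0.028), where 1 IRI+Hemin array overlapped Hemin, and the call was lost without any one of 5 arrays (IRI+Hemin replicates 2 and 3, Hemin replicates 1, 2 and 3, adjusted p 0.0567 to 0.112). Slc22a9, whose probe accession now carries the symbol Slc22a19, read 3.52, 2.11, 2.83 and 3.01 in Control, 2.50, 2.48, 2.63 and 2.77 in IRI, 1.98, 1.42, 1.84 and 2.65 in IRI+Hemin, 1.91, 1.30, 1.67 and 2.46 in IPC+IRI and 3.08, 2.95, 2.66 and 2.54 in Hemin. It was lower in IRI+Hemin vs Hemin (-0.84, adjusted p = 0.0242) and in IPC+IRI vs Control (-1.03, adjusted p = 0.00535). The first of these calls was lost without IRI+Hemin replicate 2 or 3 or Hemin replicate 1 or 2 (adjusted p 0.0558 to 0.0882), and the other without normalization between arrays (-0.59, adjusted p = 0.167). Slc22a12, the apical urate exchanger URAT1 with the HNF4 letters in the promoter shown above, read 3.27, 3.72, 4.03 and 3.62 in Control, 2.93, 2.99, 3.24 and 3.60 in IRI and 4.16, 3.83, 3.63 and 4.31 in IRI+Hemin. All IRI+Hemin arrays lay above all IRI arrays (log2 fold change 0.80, SE 0.19, adjusted p = 0.00299), and in IRI vs Control the change of -0.47 missed the threshold (adjusted p = 0.0502), although it was called with quantile normalization, the percentile over detected probes, the deposited table and without Control replicate 1 or IRI replicate 4 (adjusted p 0.0134 to 0.0247). IPC+IRI arrays of this gene read 3.67, 3.55, 3.88 and 3.68 and Hemin arrays 4.03, 4.43, 4.22 and 3.74.

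Slc22a13, an apical carrier of urate and nicotinate, read 4.42, 3.80, 3.76 and 4.05 in Control and 3.49, 3.53, 3.59 and 3.24 in IRI. It read 3.51, 3.70, 3.54 and 4.46 in IRI+Hemin, 3.62, 2.74, 3.38 and 3.90 in IPC+IRI and 4.28, 4.40, 4.06 and 4.32 in Hemin. The IRI arrays lay below all Control arrays and the Hemin arrays above all IRI arrays, yet IRI vs Control missed the threshold (-0.54, adjusted p = 0.0582). That fall was called in 5 of 19 other settings, namely quantile normalization, the percentile over detected probes, the deposited table, the compared arrays alone and without Control replicate 3 (adjusted p 0.00761 to 0.0497). The gene was lower in IPC+IRI vs Control (-0.59, adjusted p = 0.0358), a call lost without Control replicate 1 or 4 or IPC+IRI replicate 2 or 3 (adjusted p 0.0645 to 0.151), with normexp, without normalization and in the compared arrays alone (adjusted p 0.0808 to 0.608).

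Slc22a2 (OCT2) takes organic cations such as metformin and creatinine up on the basolateral side, and Slc47a1 (MATE1) releases them on the apical side. Slc22a2 read 4.80, 4.81, 4.64 and 4.66 in Control and 4.78, 4.89, 4.77 and 4.31 in IRI (-0.04, 95% CI -0.36 to 0.27), and Slc47a1 read 5.95, 6.16, 5.99 and 6.04 and 6.16, 6.20, 6.23 and 5.67 (0.03, 95% CI -0.23 to 0.29). Control and IRI overlapped for both genes, and these intervals leave room only for changes of less than 0.5. Hemin arrays read 5.15, 4.84, 4.85 and 4.83 for Slc22a2 and IRI+Hemin arrays 4.55, 4.46, 4.13 and 4.78, all of them lower, and IPC+IRI arrays 5.04, 4.61, 4.58 and 4.71. Slc22a2 fell in IRI+Hemin vs Hemin (-0.43, adjusted p = 0.0255). For Slc47a1 the levels were 5.86, 5.93, 5.84 and 6.04 in Hemin, 5.55, 5.90, 5.71 and 5.75 in IRI+Hemin and 6.20, 5.97, 5.84 and 5.97 in IPC+IRI. The Slc22a2 call was lost without IRI+Hemin replicate 2 or 3 or Hemin replicate 1 (adjusted p 0.051 to 0.1). Slc47a1 changed by -0.19 in IRI+Hemin vs Hemin (95% CI -0.45 to 0.07), and in IRI+Hemin vs IRI it was called lower (-0.34, adjusted p = 0.0344) but read 0.05 after normexp and 0.03 without normalization, and the call was lost in 6 of 8 fits that left out 1 array (adjusted p 0.052 to 0.104).

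Of the less studied SLC22 members, Slc22a18 read 5.49 to 5.58 in Control and 5.08 to 5.71 in IRI. Slc22a17, which has been described as a receptor of lipocalin-2, read -0.81 to -0.28 in Control, -0.95 to -0.54 in IRI, -1.14 to -0.58 in IRI+Hemin and -0.66 to -0.30 in Hemin. It was lower in IRI+Hemin vs Hemin (-0.47, adjusted p = 0.016), a call lost without IRI+Hemin replicate 3 or Hemin replicate 2 or 4 (adjusted p 0.0511 to 0.052). In that comparison 1 probe changed by -0.61 (adjusted p = 0.00133) and the other by -0.19 (adjusted p = 0.501). The call was also lost with log2 values averaged over probes (-0.40, adjusted p = 0.0581). Lcn2, the lipocalin-2 gene, rose in IRI vs Control by 5.06 (adjusted p = 1.04e-07) and in IRI+Hemin vs Hemin by 4.00 (adjusted p = 2.38e-06). Slc22a23, an orphan carrier, changed by -0.72 on 1 probe (adjusted p = 0.00222) and -0.10 on the other (adjusted p = 0.63) in IRI vs Control. Slc22a14 was above background only on 3 Hemin arrays and 1 array each of IRI+Hemin and IPC+IRI.

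With hemin given before, the transporters called after ischemia were mainly lower SLC22 genes. In IRI+Hemin vs Hemin, 28 genes were tested, 1 was higher (3.57%, against 16.4% of all genes) and 6 were lower (21.4%, against 27.8%), so again both shares lay below the array's. With 5 Slc22a genes that the array lists under older names added, the lower share was 33.3%, above the array's. None was called with a change of at least 2-fold (0 higher and 0 lower, against 5.78% and 8.48% of all genes, and also 0 and 0 at an unadjusted p under 0.05). The lower genes were Slc22a2, Slc22a7, Slc22a9, Slc22a16, Slc22a17 and Slc22a23, none of which was called in IRI vs Control, and none of which passed the test of the difference between the 2 changes (adjusted p 0.227 to 0.782). None of the 6 was called with normexp (adjusted p 0.0733 to 0.941), and without normalization only Slc22a7 was. In each of the 6 the change was under 1 on the log2 scale, between -0.84 and -0.42. The last of these, Slc22a23, changed by -0.92 on 1 probe (adjusted p = 0.000426) and -0.18 on the other (adjusted p = 0.387), and its call was lost in 11 of 19 other settings. The count of lower genes fell to 1 without IRI+Hemin replicate 3, to 2 without IRI+Hemin replicate 2 or Hemin replicate 2, and to 3 without Hemin replicate 1 or 4, while the count of higher genes was 0 without IRI+Hemin replicate 3 or Hemin replicate 2 and 2 without IRI+Hemin replicate 1. The counts were 0 higher and 1 lower with normexp or without normalization, 2 and 6 with quantile normalization and 0 and 6 in the deposited log2 table. Of the proximal tubule markers, 5 of 8 were lower in IRI+Hemin vs Hemin (Lrp2, Cubn, Slc34a1, Slc5a2 and Slc7a13), and their part in the result was not tested.

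Between IRI vs Control and IRI+Hemin vs Hemin, which share no array, 18 of 27 transporters changed in the same direction (66.7%, against 78% of 17289 genes). The correlation of their changes over the 27 genes was 0.169, and over all genes 0.733, given as a description because genes of an array are not independent. The difference between these changes was tested as the interaction of hemin and ischemia, in which 28 genes were tested, 3 were higher (10.7%, against 5.84%) and 1 was lower (3.57%, against 1.94%). The 3 higher ones were also at least 2-fold (4.29% of all genes), and the lower one was not (0 of 28, against 0.845%). These were Slco4c1, Slco1c1, Slco2b1 and Slc22a4, with the values given above except for Slco1c1. For that gene, with no IRI array above background, the interaction was 1.14 with IRI at the bound used above and 1.50 by measured values (adjusted p = 0.034). The measured value was -0.04 after normexp, and its call was lost in 10 of 16 fits that left out 1 array (adjusted p 0.0509 to 0.0686). No interaction was called with normexp (0 higher and 0 lower), 1 higher was called without normalization, and 1 higher and 1 lower in the deposited table. With 1 array left out, the count of higher genes was 1 without Control replicate 1, IRI replicate 4, IRI+Hemin replicate 2 or Hemin replicate 1, and that of lower genes was 2 without IRI+Hemin replicate 4. With 5 Slc22a genes that the array lists under older names added, 3 of 33 were higher and 3 lower (9.09% each, against 5.84% and 1.94%). Hemin and Control were scanned on different days, as were IRI+Hemin and IRI. IRI+Hemin and Hemin also lay on different scan days, while IRI and Control shared 1. A scan-day difference within the hemin pair therefore cannot be told apart from these interactions.

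In pre-conditioned ischemic kidneys, Slc22a8, Slc22a5 and Slc22a9 were lower than in Control by at least 2-fold, and Slco4a1 and Slc22a15 higher. In IPC+IRI vs Control, 27 genes were tested, 3 were higher (11.1%, against 23.1%) and 11 were lower (40.7%, against 32.6%), and the median change was -0.35 against -0.09 for all genes. At 2-fold or more, 2 of 27 were higher (against 7.96% of all genes) and 3 lower (11.1%, against 14.1%), so the share of lower genes lay above that of all genes without the fold limit and below it with the limit. Slco4a1, Slc22a15 and Slco3a1 were higher. Slc22a8, Slc22a5, Slc22a9, Slc22a21, Slco1c1, Slco1a1, Slco2b1, Slco1a5, Slc22a13, Slc22a17 and Slc22a18 were lower, by between -1.71 and -0.35. Of these, the Slco1a5 call (-0.69, adjusted p = 0.0377) was lost in 10 of 17 other settings, 5 of them without 1 array (Control replicate 2 or 4 or IPC+IRI replicate 1, 2 or 4), and it shrank to -0.34 with quantile normalization and -0.27 with log2 values averaged over probes. The Slc22a18 call (-0.35, adjusted p = 0.0342) was lost or turned in 8 of 18, 5 of them without 1 array (Control replicate 1, 3 or 4 or IPC+IRI replicate 2 or 4, adjusted p 0.0544 to 0.0862). Slc22a17 lost its call with normexp (-0.34, adjusted p = 0.0698) and without normalization (-0.05, adjusted p = 0.862). Slco1c1 lost it with normexp (-0.42, adjusted p = 0.184), without normalization (-0.50, adjusted p = 0.257) and with quantile normalization (-0.60, adjusted p = 0.0703). The Slco1a1 call was lost without normalization (-0.47, adjusted p = 0.261). The split was 3 higher and 16 lower with the percentile over detected probes, 3 and 14 with quantile normalization and 2 and 5 with normexp, and it turned to 5 and 2 without normalization between arrays. The leukocyte markers summed to 3.59 to 5.32 in IPC+IRI, 2.00 to 2.53 in Control and 2.79 to 3.68 in IRI, with 10, 8 and 9 of the 10 markers well above background on at least 3 arrays, and their part in the result was not tested.

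The comparisons of pre-conditioned and of hemin-treated ischemic kidneys with IRI share the IRI arrays, and each spans 2 scan days, so their values are set side by side only. In IPC+IRI vs IRI, 5 of 27 genes were higher (18.5%, against 26%) and 8 lower (29.6%, against 17.7%), of which 2 and 2 changed at least 2-fold (7.17% and 4.4% of all genes). In IRI+Hemin vs IRI, 6 of 27 were higher (22.2%, against 26.1%) and 6 lower (22.2%, against 18%), of which 3 and 3 changed at least 2-fold by measured values (7.43% and 5.04%), and 2 and 3 with Slco1c1 at its bound of 1.75-fold. The 5 fell to 3 without IRI replicate 3 or IPC+IRI replicate 1 and to 2 without IPC+IRI replicate 3. Slco4c1 changed by 2.01 and 2.23 in these comparisons, Slc22a4 by -0.93 and -1.10, Slc22a8 by -1.63 and -1.35, and Slco1a1 by -1.41 and -1.70. For Slco2b1 the values were 0.27 (adjusted p = 0.33) with pre-conditioning and 0.76 (adjusted p = 0.0093) with hemin. The splits moved with the processing. In IPC+IRI vs IRI they were 2 higher and 6 lower with normexp, 6 and 3 without normalization and 3 and 10 with quantile normalization. In IRI+Hemin vs IRI they were 9 and 3 without normalization and 5 and 3 in the deposited table, in which fewer genes could be tested. Of the 8 proximal tubule markers, 3 rose and 1 fell in IPC+IRI vs IRI, while IRI+Hemin vs IRI had 4 that rose and 1 that fell. All 3 red cell markers were lower by at least 2-fold in IPC+IRI vs IRI, with summed levels of 3.40 to 5.76 in IPC+IRI and 6.25 to 6.60 in IRI, and all 3 were well above background on at least 3 arrays in both groups. Leukocyte markers, with the levels given above, were higher for 3 and lower for 1 of 10 in IPC+IRI vs IRI. The part of these markers in the result was not tested.

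Hemin without ischemia was followed by lower Slc22a8, Slco1a1, Slc22a5 and Slc22a21 and higher Slc22a15, Slco4a1 and Slco3a1. In Hemin vs Control 4 of 28 genes were called higher (14.3%, against 18.4%) and 4 lower (14.3%, against 17.6%), shares below those of all genes. At least 2-fold changes were called for 0 higher (2.18% of all genes) and 2 lower (5.97%), Slc22a8 and Slco1a1. The 4 higher genes became 2 without Control replicate 4 or Hemin replicate 1. The Slc22a21 call (-0.77, adjusted p = 0.00799) was lost without normalization (-0.20, adjusted p = 0.639). Without normalization between arrays the split was 14 higher and 1 lower, with quantile normalization 3 and 6, with the percentile over detected probes 2 and 6, and 2 and 4 in the scaled deposited table.

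**Figure D4:**
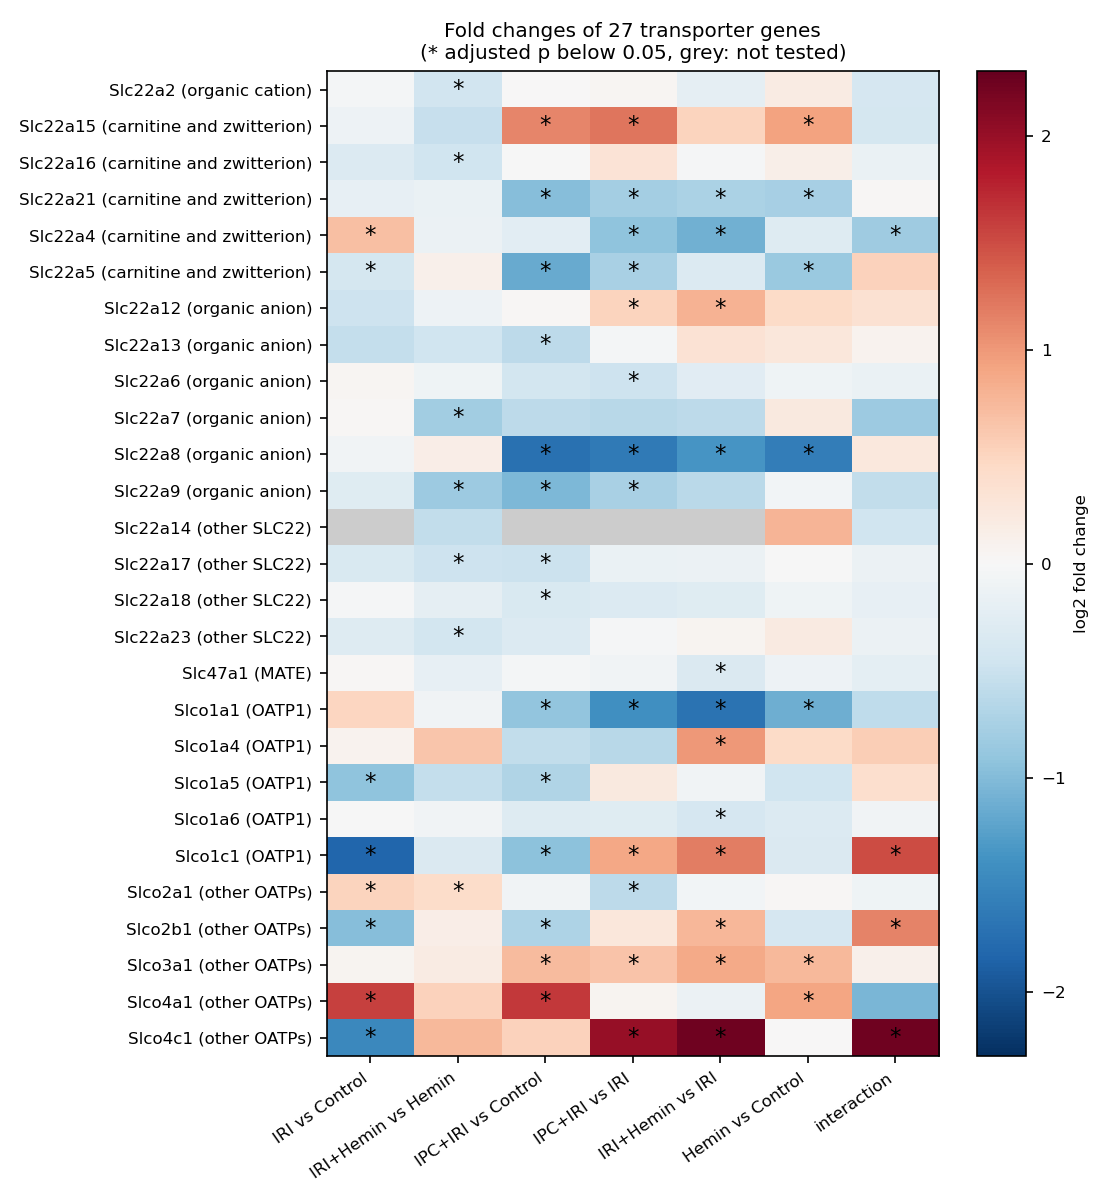
Log2 fold change of 27 transporter genes (rows) in 7 comparisons (columns), with a star for adjusted p below 0.05. Comparisons that share a group of arrays are not independent. With normexp background correction, whose offset of 50 compresses differences of dim genes, 24 stars were lost. Another 9 turned in direction, among them stars of Slco1c1, Slco1a5, Slco1a4, Slc22a15 and Slc47a1.

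Slc22a8 and Slc22a5 separated the arrays of the first scan day completely from the later ones. All 12 later-scanned arrays lay below all 8 arrays of Control and IRI for Slc22a8 (1.11 to 1.85 against 2.41 to 3.51) and Slc22a5 (1.72 to 2.31 against 2.40 to 3.40), which are 2 of 28 transporters. Among 19060 genes such a split downward was seen in 2.46% and upward in 1.67%. Slco1a1, Slc22a21 and Slco3a1 came near to it, each with a slight overlap. Scan day and treatment cannot be told apart for these genes, since no group was scanned on more than 1 day.

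**Figure D5:**
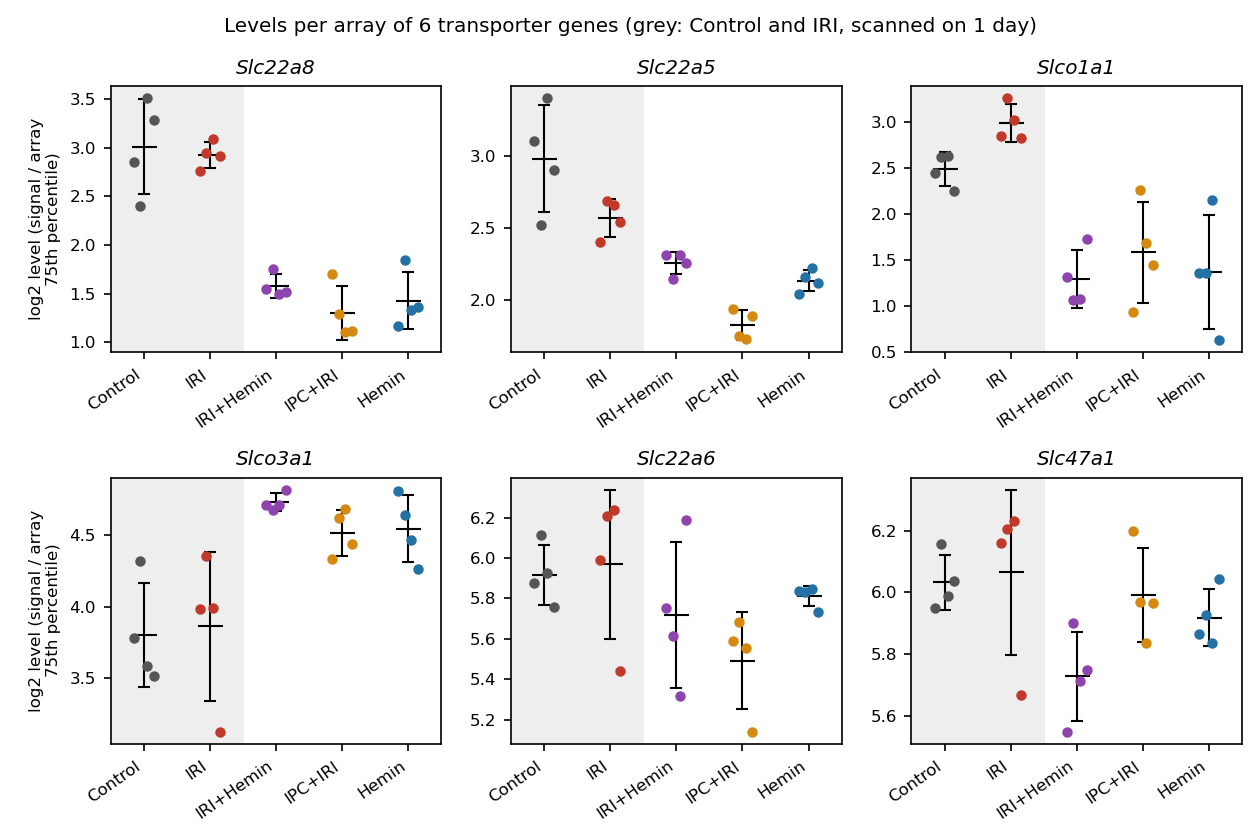
Log2 level of 6 transporter genes on each array, with grey behind Control and IRI, the groups scanned on 1 day, and bars for the mean and SD of 4 arrays. Slc22a8 and Slc22a5 drop from 2.40 or more in the grey groups to 2.31 or less in the others, while the ranges of Slc22a6 and Slc47a1 in the grey groups overlap those of the others.

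Within the third scan day, IPC+IRI vs Hemin compares pre-conditioned ischemic kidneys with kidneys given hemin alone, a comparison added after the data were seen. By limma's test 0 of 28 transporters were higher (0.00%, against 13.1%, and 1 at an unadjusted p under 0.05) and 6 were lower (21.4%, against 22.8%), with 0 higher (5.27%) and 1 lower (5.39%) at 2-fold or more. The lower genes were Slco1a4 (-1.01, adjusted p = 0.0304), Slc22a9 (-0.97, adjusted p = 0.0129), Slc22a13 (-0.85, adjusted p = 0.00776), Slc22a7 (-0.84, adjusted p = 0.0274), Slc22a23 (-0.51, adjusted p = 0.0167) and Slc22a17 (-0.49, adjusted p = 0.0159). Slc22a8 differed by -0.12 here (95% CI -0.55 to 0.30). With 5 Slc22a genes that the array lists under older names added, 10 of 33 were lower (30.3%, above the 22.8% of all genes). Of these, 3 were lower by at least 2-fold. In the same comparison 5 of 10 leukocyte markers were higher and 0 lower, and 5 of 5 tubular injury markers were higher. Of 8 proximal tubule markers, 3 were lower and 0 higher. The part of these markers in the result was not tested.

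Other carriers work beside these transporters in the proximal tubule. Of 12 partner carriers tested in IRI vs Control, 5 were lower (41.7%, against 33.7% of all genes) and 1 was higher (8.33%, against 17%). With hemin, in IRI+Hemin vs Hemin, 6 were lower (50%, against 27.8%) and 2 higher (16.7%, against 16.4%). Slc13a2, the citrate and dicarboxylate carrier, fell by 2.05 in IRI vs Control (adjusted p = 4.62e-05) and by 1.00 in IRI+Hemin vs Hemin (adjusted p = 0.0167). Slc13a3, which supplies the dicarboxylates that organic anion transporters exchange, changed by -0.13 in the first (adjusted p = 0.519) and -0.94 in the second (adjusted p = 0.00022), with an interaction of -0.81 (adjusted p = 0.0402). Slc13a1, the sulfate carrier, went from -0.55 (adjusted p = 0.00982) to 0.58 (adjusted p = 0.00848), with an interaction of 1.13 (adjusted p = 0.00622). Ostb, a subunit of the basolateral steroid and bile acid carrier, rose by 1.25 (adjusted p = 4e-05) and 1.23 (adjusted p = 7.37e-05).

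Of the ABC efflux pumps, 3 of 9 were higher in IRI vs Control (33.3%, against 17% of all genes) and 3 of 10 in IRI+Hemin vs Hemin (30%, against 16.4%), with 0 lower in each by limma's test, also at an unadjusted p under 0.05. In IRI+Hemin vs IRI 2 of 10 were higher and 0 lower (26.1% and 18% of all genes). In IPC+IRI vs Control 1 of 9 was higher and 0 lower (23.1% and 32.6%), with 2 lower at an unadjusted p under 0.05. Hemin vs Control had 0 higher and 0 lower of 10 (18.4% and 17.6%). The counts were 0 higher and 1 lower of 9 in IPC+IRI vs IRI (26% and 17.7%) and 1 higher and 3 lower of 10 in IPC+IRI vs Hemin (13.1% and 22.8%). Abcc2, the apical pump of conjugates, rose by 0.51 (adjusted p = 0.00124) and 0.37 (adjusted p = 0.0143). Abcb1b, a P-glycoprotein gene, changed by 0.17 (adjusted p = 0.531) in IRI vs Control and rose by 1.21 (adjusted p = 0.000234) in IRI+Hemin vs Hemin, with an interaction of 1.05 (adjusted p = 0.041). The part of these genes in the transporter results was not tested.

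Among 13 regulators and scaffold genes tested in IRI vs Control, 5 were higher (38.5%, against 17% of all genes) and 2 lower (15.4%, against 33.7%). With hemin, in IRI+Hemin vs Hemin, 5 of 14 were higher (35.7%, against 16.4%) and 4 lower (28.6%, against 27.8%). Cebpb, a transcription factor of the acute phase, rose by 2.69 (adjusted p = 2.26e-07) and 2.83 (adjusted p = 2.74e-07). Nfe2l2, which binds the antioxidant response element, rose by 0.62 (adjusted p = 0.00287) and 0.69 (adjusted p = 0.00179). Hnf4a, which binds the HNF4 site, changed by -0.10 (adjusted p = 0.686) and fell by 0.53 (adjusted p = 0.038). Pdzk1, which anchors several of these transporters in the apical membrane, changed by -0.26 (adjusted p = 0.142) and -0.76 (adjusted p = 0.000403).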

How the data were processed

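RNA of 20 mouse kidney samples, 5 groups of 4, was measured on 1-colour Agilent arrays. Per the labels, intensities were extracted with Agilent Feature Extraction 9.5.3.1, while the study's methods name another minor version. The deposited scanner files hold processed signal intensity for each spot. The deposited log2 table (18.1% blank) equalled log2 of that intensity within 0.001 for 100% of values of 33598 probes with 1 spot, so it holds no further scaling, and no normalization between arrays was named in the study's methods. The labels do not say that the 4 arrays of a group came from separate mice rather than repeats, so p-values measure the spread between these samples. Here flagged spots (0.122% to 0.38% per array) were removed, intensities were divided by the 75th percentile of the array, probes that share a gene name were combined by their linear mean (the study's methods also use a mean), and log2 was taken. A gene was tested with at most 1 missing array and a signal well above background on at least 3 of 4 arrays of a compared group. The test was limma (R 4.3.3, limma 3.58.1) over 5 group means with 15 residual degrees of freedom, Benjamini-Hochberg adjustment in each comparison over all genes tested, and calls at 0.05. The scripts were tested on simulated data. Per-array values are given for transporters past adjusted p 0.05 with at least a 2-fold change and a signal above background on at least 3 of 4 arrays of both groups (at most 8 rises and 8 falls per comparison), and for a set of 18 well-known kidney members. Other members are given by ranges and counts, or by value where a count of 5 or fewer, or a feature singled out after its values were seen, needs them. Partner, regulator and marker lists came from general knowledge. The members and lists were chosen with earlier results of these data known. Alternatives were normexp, quantile, no and other percentile scaling, the deposited table scaled to the 75th percentile of its own values on each array, probe averaging, dim-gene filters, compared arrays alone, a replicate block and leaving out each array. No member had saturated spots. Precision is limited by the number of arrays. Promoter sequences are from RefSeq. Values of 1 transporter and 1 regulator, which stay in the counts, are not reported here. Comparison IPC+IRI vs Hemin and the split by scan day were chosen after seeing the data.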

Additional observations from a re-analysis of the deposited data

Results flagged for a closer look

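In 27 transporter genes and 5 groups, 135 groups of 4 arrays were examined for an array that stands apart, by Dixon's ratio of its gap to the nearest array over the range of the group. The ratio passed its critical value of 0.829 in 9 groups, where chance gives about 1 in 20. IRI replicate 4 was the array in 4 of them. It read 4.97 for Slc22a7 against 5.68 to 5.72 on the other IRI arrays (ratio 0.956), 5.67 for Slc47a1 against 6.16 to 6.23 (0.876), -0.54 for Slc22a17 against -0.95 to -0.89 (0.873) and -2.31 for Slco4c1 against -3.48 to -3.35 (0.892). IRI replicate 2 was high for Slco4a1, at 2.80 against 1.94 to 2.08 (0.84). Control replicate 3 was low for Slco1c1, at -4.76 against -3.44 to -3.32 (0.921). Hemin replicate 1 was high for Slc22a2, at 5.15 against 4.83 to 4.85 (0.914), and Hemin replicate 4 was low for Slc22a6, at 5.73 against 5.83 to 5.85 (0.848). IRI+Hemin replicate 4 was low for Slc22a21, at 0.24 against 0.80 to 0.89 (0.864).

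The change with ischemia differed with hemin for 4 genes by limma's interaction term. The difference was 2.23 for Slco4c1 (adjusted p = 0.00463), 1.50 by measured values for Slco1c1 (adjusted p = 0.034), 1.14 for Slco2b1 (adjusted p = 0.0287) and -0.81 for Slc22a4 (adjusted p = 0.014). No IRI array was above background for Slco1c1, and its value was 1.14 with the IRI level at its upper bound and -0.039 with normexp. Without IRI replicate 4 the interaction was called higher for 1 transporter and lower for 1.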

How the results depend on the processing

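Of 66 calls over the 7 comparisons, 19 were kept in every setting tried and 47 were lost in at least 1. The counts of transporters called, given as higher and lower, moved as follows. IRI vs Control (3 and 5) gave 2 and 1 with normexp, 2 and 3 without normalization between arrays, 3 and 9 with the percentile over detected probes, 3 and 3 with a strict filter on dim genes, 1 and 2 at 2-fold or more, 0 and 2 at the study's fold cutoffs, and 3 and 8 with 5 genes added by current symbol. IRI+Hemin vs Hemin (1 and 6) gave 0 and 1 with normexp or no normalization, 2 and 6 with quantile normalization, 0 and 6 in the deposited table or with no filter, 0 and 0 at 2-fold, and 1 and 11 with the 5 genes. IPC+IRI vs Control (3 and 11) gave 3 and 16 with the percentile over detected probes, 3 and 14 with quantile normalization, 2 and 5 with normexp, 5 and 2 without normalization, 2 and 3 at 2-fold, and 0 and 3 at the study's cutoffs. IPC+IRI vs IRI (5 and 8) gave 2 and 6 with normexp, 6 and 3 without normalization, 3 and 10 with quantile normalization, 3 and 6 in the deposited table, 2 and 2 at 2-fold and 1 and 1 at the study's cutoffs. IRI+Hemin vs IRI (6 and 6) gave 9 and 3 without normalization, 5 and 3 in the deposited table, 6 and 10 with no filter and 3 and 3 at 2-fold by measured values (2 and 3 with Slco1c1 at its bound). Hemin vs Control (4 and 4) gave 14 and 1 without normalization, 2 and 6 with the percentile over detected probes, 2 and 4 in the deposited table, 0 and 2 at 2-fold and 0 and 1 at the study's cutoffs. The interaction (3 and 1) gave 0 and 0 with normexp, 1 and 0 without normalization, 1 and 1 in the deposited table, 3 and 0 at 2-fold, and 3 and 3 with the 5 genes. The causes were not tested.

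The numbers of the replicates are no pairs, as same-numbered arrays correlated at -0.331 to 0.212 and 2 of 20 correlated best with their own number. With the replicate number as a block, the counts of Hemin vs Control became 2 and 4, IRI vs Control stayed at 3 and 5, and the others were 1 and 5 in IRI+Hemin vs Hemin, 3 and 10 in IPC+IRI vs Control, 4 and 7 in IPC+IRI vs IRI, 6 and 7 in IRI+Hemin vs IRI and 3 and 1 for the interaction. With 1 array left out, higher and lower counts ranged over 3 to 3 and 4 to 7 in IRI vs Control, 0 to 2 and 1 to 7 in IRI+Hemin vs Hemin, 3 to 3 and 9 to 11 in IPC+IRI vs Control, 2 to 5 and 6 to 9 in IPC+IRI vs IRI, 5 to 6 and 4 to 9 in IRI+Hemin vs IRI, 2 to 4 and 4 to 5 in Hemin vs Control, and 1 to 3 and 1 to 2 for the interaction.

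Directions turned with normexp for Slco1a5 (0.13) and Slco1c1 (0.000957) in IRI vs Control, Slc22a15 (-0.15) and Slco1c1 (-0.42) in IPC+IRI vs IRI, Slc47a1 (0.046), Slco1a4 (-0.12) and Slco1c1 (-0.45) in IRI+Hemin vs IRI, Slc22a15 (-0.11) in Hemin vs Control and Slco1c1 (-0.039) in the interaction. Without normalization they turned for Slc22a18 in IPC+IRI vs Control (0.084), Slc47a1 in IRI+Hemin vs IRI (0.027), and Slc22a17 (0.56), Slc22a18 (0.46) and Slc22a6 (0.46) in Hemin vs Control. That setting moved the median of all genes by 0.12 in IRI vs Control, 0.44 in IPC+IRI vs Control, 0.32 in IPC+IRI vs IRI, 0.36 in IRI+Hemin vs IRI and 0.57 in Hemin vs Control, and the deposited table, scaled to the 75th percentile of its own values on each array, moved it by -0.19 to 0.20. Signals near background limit the fold changes of Slco1c1, Slco1a5, Slco1a4 and Slc22a15, and the normexp offset of 50 compresses such differences further. The 5 added genes, the separate probes and IPC+IRI vs Hemin were chosen after seeing the data.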

Other observations

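The array names 5 further genes by older names that RefSeq now lists as Slc22a members, and the naming rule leaves them out. EG434674, now Slc22a28, fell by 0.91 in IRI vs Control (adjusted p = 4.68e-05) and by 1.68 in IRI+Hemin vs Hemin (adjusted p = 1.5e-07), with means of 4.79 ± 0.14 in Control, 3.88 ± 0.25 in IRI, 3.05 ± 0.19 in IRI+Hemin and 4.73 ± 0.11 in Hemin (SD, n = 4 each). Its interaction was -0.78 (adjusted p = 0.0223). C730048C13Rik, now Slc22a30, fell by 0.59 (adjusted p = 0.00179) and by 1.15 (adjusted p = 6.88e-06). D630002G06Rik, now Slc22a29, fell by 1.58 (adjusted p = 0.000137) and by 2.63 (adjusted p = 1.56e-06). BC026439, now Slc22a22, a prostaglandin carrier, changed by 0.17 in IRI vs Control and fell by 0.77 in IRI+Hemin vs Hemin (adjusted p = 0.00364), with an interaction of -0.95 (adjusted p = 0.0394). BC014805, now Slc22a26, changed by -0.49 (adjusted p = 0.332) and fell by 1.11 (adjusted p = 0.0341). With these genes the counts became 3 higher and 8 lower in IRI vs Control and 1 higher and 11 lower in IRI+Hemin vs Hemin. The lower share in IRI+Hemin vs Hemin then was 33.3%, above the 27.8% of all genes, where the rule's own genes gave 21.4%, and in IRI vs Control it was 25% against 33.7%. Whether probes of these related genes share signal was not tested.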
